A study of Mus musculus with 6 samples.

Results

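The genes described are the collagens and the enzymes and helpers that process them, in whole hearts of DNMTs-Tg and wild-type mice. They were chosen by name. Every probe set whose platform annotation gives 1 of 40 gene symbols, and no other, was taken, which gave 76 of the 45101 probe sets on the array and 39 of the 40 genes. Both probe sets of Loxl2 are annotated to several genes, so Loxl2 was not measured. After a filter on low signals 35 of the 40 genes were tested, among 13634 genes in all, while Col11a1, Col4a6, Col8a2 and P4ha3 were too dim.

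Hearts came from 3 DNMTs-Tg mice (replicates 1, 5 and 6) and 3 wild-type mice (replicates 1, 4 and 6), all 8 weeks old, with 1 array per mouse. The transgenes of DNMTs-Tg mice encode DNMT3A2, an isoform of DNMT3A that methylates new DNA sites, and its inactive partner DNMT3L, both made ectopically in many somatic tissues for life. They were bred by crossing an FVB-Tg(Ddx4-cre)1Dcas/J female, whose Cre is driven by a germ cell promoter, with a male carrying the flox alleles. The promoter of the transgenes, and whether wild-type mice carried Cre, are not given in the labels. These mice grow slowly after birth and die young, and the study asked which heart genes lose expression.

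The genotype was read first from the transgenes' own genes. Dnmt3l had log2 signals of 12.30, 12.38 and 12.19 on the DNMTs-Tg arrays, against 5.28, 5.48 and 5.17 on the wild-type arrays, a 126-fold difference. Of the 5 probe sets of Dnmt3a, 1 differed by 1.02 ± 0.21 (log2, SE, adjusted p = 0.0563 among all probe sets), and the others by -0.28, -0.28, -0.11 and -0.09. Which of them detect the transgene is not known here. Sex-linked RNA did not follow the labels, which call 5 mice female and wild-type replicate 6 male. The Y-linked Eif2s3y had 9.41 to 9.52 on 5 arrays and 3.32 on wild-type replicate 4, the only array with a high Xist signal, so wild-type replicate 1 and all 3 DNMTs-Tg mice went against their label. DNMTs-Tg replicate 1 stood apart from the other arrays in the genes described here, and values without it are given beside many, but not all, of the medians and differences that it moved. As a measure of RNA integrity, the 3′ and 5′ control probe sets of Gapdh differed by 0.66 ± 0.12 (log2, SD, n = 3) in DNMTs-Tg and 0.43 ± 0.06 in wild-type hearts (2-sided p = 0.1 by an exact permutation test, which can give no smaller p here), and those of beta-actin by 1.12 ± 0.25 in DNMTs-Tg and 1.15 ± 0.09 in wild-type hearts (exact p = 0.8).

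Collagens are proteins of the extracellular matrix whose chains wind into a long helix. Fibrillar types form the fibres that give the heart wall its tensile strength, and type IV collagens form the sheet of the basement membrane around cardiomyocytes and capillaries. Chains are hydroxylated on proline and lysine in the endoplasmic reticulum, folded with the help of a chaperone, trimmed after secretion, and cross-linked by lysyl oxidases. In the heart the fibrillar types are made mainly by fibroblasts, and their build-up is known as fibrosis.

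Of the 35 genes tested, 2 passed the threshold of adjusted p under 0.05, and both rose in DNMTs-Tg hearts. They were Plod1, a lysyl hydroxylase, and Col4a5, a basement membrane chain. That is 5.71% of the genes, next to 5.39% of all genes tested in either direction, 2.24% higher and 3.15% lower, so the share called was near the background. At an unadjusted p under 0.05 there were 10 genes (28.6%), all of them higher, next to 26% of all genes in either direction and 12.9% higher. Besides Plod1 and Col4a5 these were Col4a2, Pcolce, Col18a1, Col1a2, Lox, Col4a1, Col12a1 and Col8a1. In whole hearts, more cells of a type and more RNA per cell cannot be told apart.

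The log2 difference between the groups was above 0 in 29 of the 35 genes (82.9%), next to 50.8% of all genes tested, and its median was 0.48, next to 0.0055 over all genes. The spread between the mice was wide. In 8 genes every DNMTs-Tg array lay above every wild-type array (22.9%, next to 17.3% of all genes), and in 0 genes every one lay below (next to 17.6%). The other 27 genes had overlapping groups. Without DNMTs-Tg replicate 1 the median was 0.21, with 26 of 35 differences above 0 and 2 genes called, Plod1 and Pcolce.

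**Figure D1:**
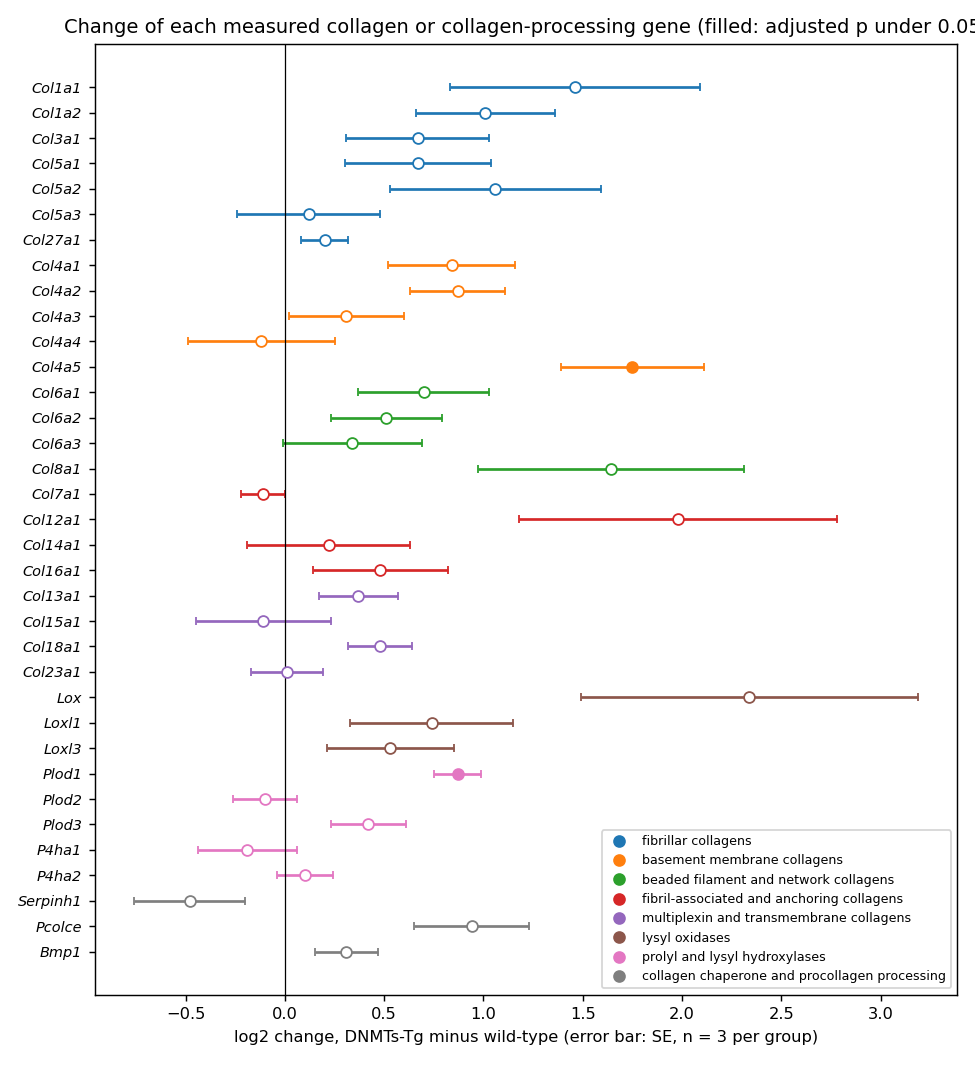
Log2 difference, DNMTs-Tg minus wild-type, of the 35 tested genes on the horizontal axis, with the genes down the page coloured by class, error bars of 1 SE (n = 3 per group) and filled points for an adjusted p under 0.05. Of the 35 points, 29 lie right of 0, and the 2 filled ones are Col4a5 and Plod1.

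DNMTs-Tg replicate 1 carried much of the difference. It was the highest of all 6 arrays in 27 of the 35 genes, and the highest of the 3 DNMTs-Tg arrays in 30. It lay above every wild-type array in 29 genes (82.9%, next to 39.5% of all genes), DNMTs-Tg replicate 5 in 17 (48.6%, next to 34.4%) and DNMTs-Tg replicate 6 in 9 (25.7%, next to 35.9%). The median distance of the genes from the wild-type mean was 1.04, 0.28 and 0.15 on the log2 scale in DNMTs-Tg replicates 1, 5 and 6. Among the wild-type arrays replicate 6 was the highest in 23 of the 35 genes. Replicate 6 of DNMTs-Tg thus lay mostly within the wild-type range.

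**Figure D2:**
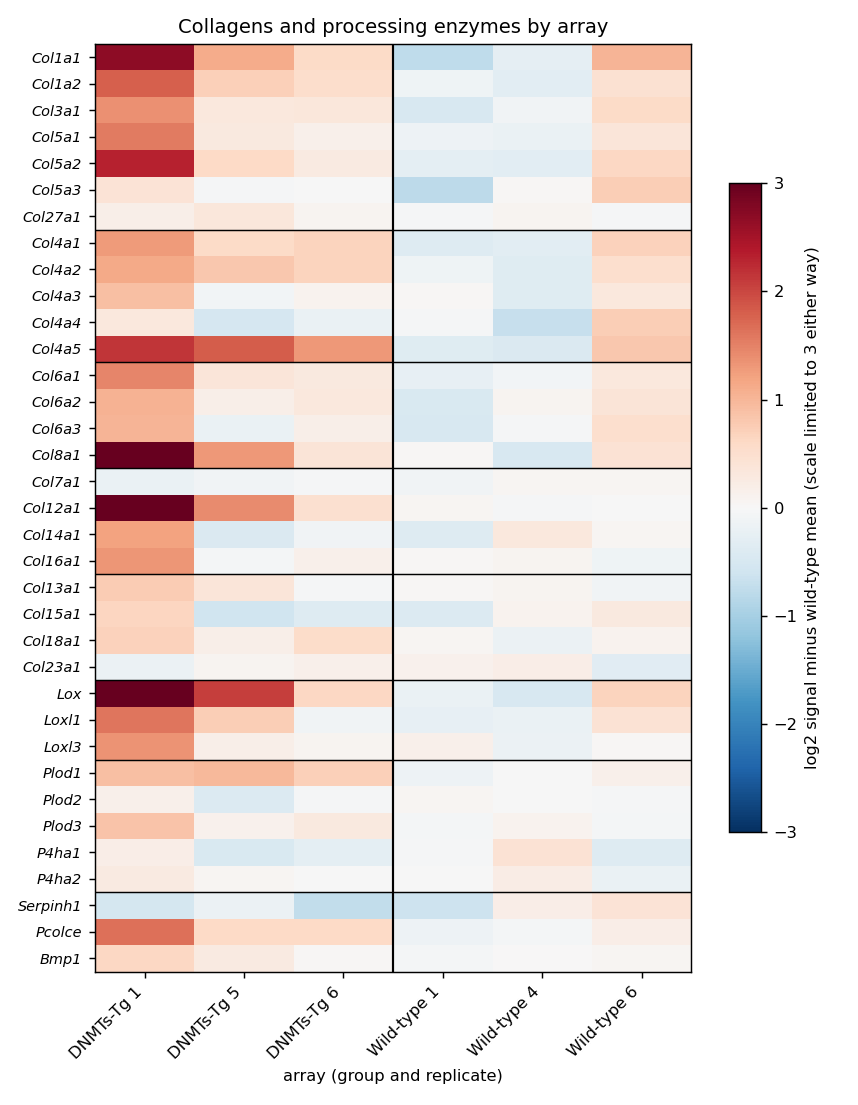
Log2 signal minus the wild-type mean, in colour, for the 35 tested genes (rows, lines between the classes) on each array (columns, DNMTs-Tg left and wild-type right of the thick line). The column of DNMTs-Tg replicate 1 is the reddest, and among the wild-type columns that of replicate 6 is.

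Fibrillar collagens had a median log2 difference of 0.67 over the 7 of 8 chains tested. All 7 differences were above 0, and none passed the threshold (limma, 0 called, 1 at an unadjusted p under 0.05). The mean over the 7 chains, relative to wild-type, was 1.47, 0.48 and 0.27 on the DNMTs-Tg arrays, and -0.38, -0.15 and 0.53 on the wild-type arrays. The groups therefore overlapped, with wild-type replicate 6 above DNMTs-Tg replicates 5 and 6. Without DNMTs-Tg replicate 1 the median was 0.32, and 6 of 7 differences stayed above 0.

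Col1a1 and Col1a2 encode the chains of type I collagen, the main fibre of the heart's interstitium. Col1a2 had log2 signals of 13.35, 12.27 and 12.10 in DNMTs-Tg replicates 1, 5 and 6, against 11.43, 11.25 and 12.02 in wild-type replicates 1, 4 and 6. The groups did not overlap, although DNMTs-Tg replicate 6 lay just above wild-type replicate 6. Its difference was 1.01 ± 0.35 (log2, SE, n = 3 per group, adjusted p = 0.132). A second kept probe set of Col1a2 differed by 1.44 ± 0.61 (adjusted p = 0.246 among all probe sets), and there the groups overlapped. Col1a1 had 10.71, 9.13 and 8.60 in DNMTs-Tg hearts, against 7.26, 7.76 and 9.05 in wild-type hearts. Here DNMTs-Tg replicate 6 lay below wild-type replicate 6, and the difference was 1.46 ± 0.63 (adjusted p = 0.196). On the remaining 5 arrays without DNMTs-Tg replicate 1, Col1a2 differed by 0.62 (adjusted p = 0.13) and Col1a1 by 0.84 (0.325).

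Col3a1, the chain of type III collagen, which forms thinner fibres beside type I, had 13.48, 12.42 and 12.44 in DNMTs-Tg hearts, against 11.62, 12.01 and 12.69 in wild-type hearts. Only DNMTs-Tg replicate 1 exceeded wild-type replicate 6, and the difference was 0.67 ± 0.36 (adjusted p = 0.282), or 0.32 without that array (0.517). The type V chains sit inside type I fibres and set their width. Col5a2 differed by 1.06 ± 0.53 (adjusted p = 0.254), Col5a1 by 0.67 ± 0.37 (0.292) and Col5a3 by 0.12 ± 0.36 (0.86). These were 0.43, 0.23 and -0.03 without DNMTs-Tg replicate 1. Col27a1, a fibrillar chain best known from cartilage, differed by 0.20 ± 0.12 (0.326). Col11a1, another fibrillar chain of cartilage, had 5.48 and 4.86 from its 2 probe sets in DNMTs-Tg replicate 1, but 2.60 to 3.86 in the other DNMTs-Tg hearts, against 2.63 to 4.31 in wild-type hearts.

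**Figure D3:**
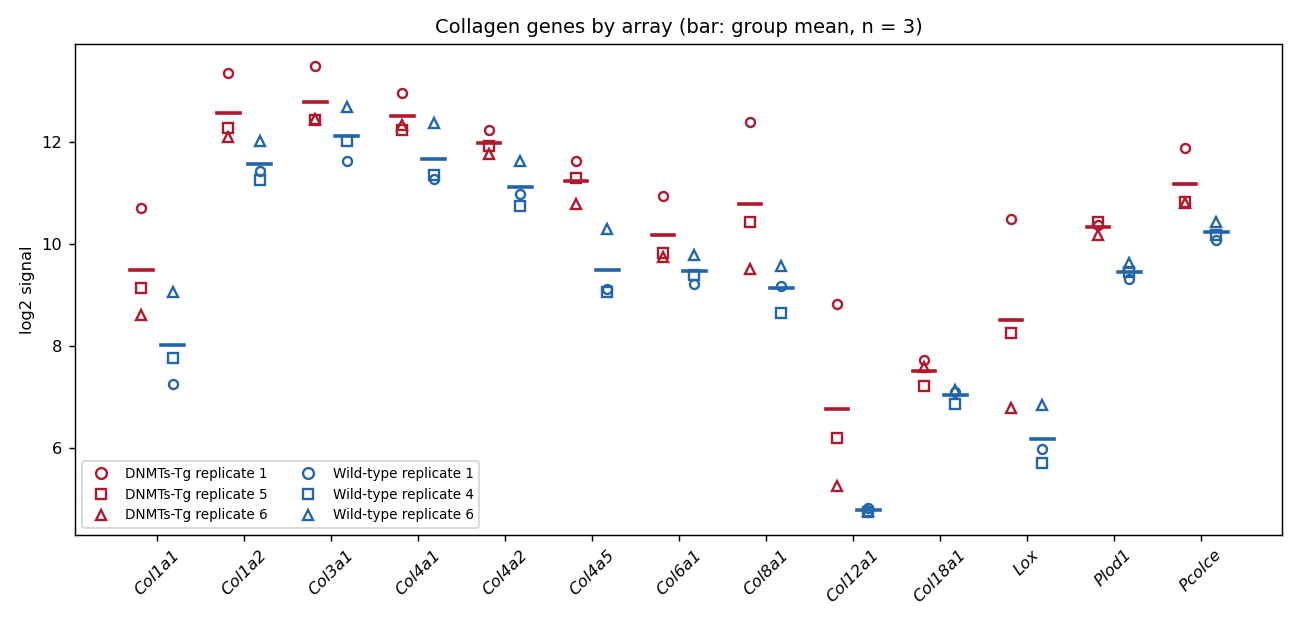
Log2 signal of 13 genes on each array, with DNMTs-Tg (red) left of wild-type (blue) for each gene, 1 marker shape per replicate, and bars at the group means (n = 3). The red and blue points are separate for Plod1 and Col4a5, while in Col1a1, Col3a1, Col4a1 and Lox the highest wild-type point, replicate 6, lies above at least 1 DNMTs-Tg point.

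Basement membrane collagens had a median log2 difference of 0.84 over the 5 of 6 type IV chains tested, with 4 above 0. Of them 1 rose (20%, next to 2.24% of all genes) and 4 did not pass the threshold. The mean over the 5 chains was 1.16, 0.52 and 0.51 on the DNMTs-Tg arrays, and -0.18, -0.44 and 0.61 on the wild-type arrays. As for the fibrillar chains, wild-type replicate 6 was above DNMTs-Tg replicates 5 and 6. Without DNMTs-Tg replicate 1 the median was 0.63, with 4 of 5 above 0. Whether the fibrillar and basement membrane classes differ from each other was not tested.

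Col4a5 encodes a minor type IV chain and lies on the X chromosome. Its log2 signals were 11.62, 11.30 and 10.79 in DNMTs-Tg hearts, against 9.12, 9.05 and 10.29 in wild-type hearts. The groups did not overlap, and wild-type replicate 6 was the wild-type array nearest to the DNMTs-Tg ones. Col4a5 rose by 1.75 ± 0.36 (log2, SE, n = 3 per group), or 3.37-fold (adjusted p = 0.0401). A second probe set of the gene differed by 1.36 ± 0.36 without overlap (adjusted p = 0.0996 among all probe sets). With the mean of both the difference was 1.56 and missed the threshold (adjusted p = 0.0583). The call was also lost without DNMTs-Tg replicate 1 (1.56, adjusted p = 0.0539), DNMTs-Tg replicate 5 (1.72, 0.13), wild-type replicate 1 (1.57, 0.158) or wild-type replicate 4 (1.53, 0.145), the array with a high Xist signal. The part of sex in this X-linked gene was not tested, and the only array with a high Xist signal was a wild-type one.

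Col4a1 and Col4a2 encode the major type IV chains, which assemble together. Col4a2 had 12.24, 11.91 and 11.77 in DNMTs-Tg hearts, against 10.97, 10.74 and 11.62 in wild-type hearts, a difference of 0.87 ± 0.24 (adjusted p = 0.0806). Its groups did not overlap. Without wild-type replicate 6 the difference was 1.12 and passed the threshold (adjusted p = 0.0458). Col4a1 had 12.95, 12.24 and 12.33 in DNMTs-Tg hearts, against 11.28, 11.35 and 12.36 in wild-type hearts. Its DNMTs-Tg replicates 5 and 6 lay below wild-type replicate 6, and the difference was 0.84 ± 0.32 (adjusted p = 0.155). With DNMTs-Tg replicate 1 left out it was 0.63, and that of Col4a2 0.73, neither past the threshold (0.254 and 0.117).

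Col4a3 and Col4a4, the partners of Col4a5 in the kidney's basement membrane, differed by 0.31 ± 0.29 (adjusted p = 0.531) and -0.12 ± 0.37 (0.861). The kept probe sets of these 2 genes differed in sign. Col4a6, the neighbour of Col4a5 on the X chromosome, was not tested, with 4.23 to 4.89 in DNMTs-Tg hearts and 4.00 to 4.56 in wild-type hearts over its 2 probe sets. These values lie near the 40th percentile of an array, 4.64 to 4.72, which was the filter's limit.

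The windows around the starts of the 3 type IV genes with the largest differences, and of Plod1, are shown because CpG sites, in capitals, are the sites that DNMT3 enzymes methylate. DNA methylation was not analysed here. Each window runs from 250 bases before to 50 after the annotated start and comes from RefSeq on GRCm38.p6. It is written 5′ to 3′ on the gene's own strand. Col4a1 lies at chr8:11312777-11313076 on the minus strand, Col4a2 at chr8:11312555-11312854 on the plus strand, Col4a5 at chrX:141475169-141475468 on the plus strand and Plod1 at chr4:147936727-147937026 on the minus strand.
Col4a1: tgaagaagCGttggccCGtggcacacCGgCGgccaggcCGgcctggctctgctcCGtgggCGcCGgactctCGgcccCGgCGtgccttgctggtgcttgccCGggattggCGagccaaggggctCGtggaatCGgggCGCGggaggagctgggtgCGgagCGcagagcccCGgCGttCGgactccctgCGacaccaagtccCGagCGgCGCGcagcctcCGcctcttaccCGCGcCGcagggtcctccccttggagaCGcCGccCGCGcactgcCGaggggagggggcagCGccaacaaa
Col4a2: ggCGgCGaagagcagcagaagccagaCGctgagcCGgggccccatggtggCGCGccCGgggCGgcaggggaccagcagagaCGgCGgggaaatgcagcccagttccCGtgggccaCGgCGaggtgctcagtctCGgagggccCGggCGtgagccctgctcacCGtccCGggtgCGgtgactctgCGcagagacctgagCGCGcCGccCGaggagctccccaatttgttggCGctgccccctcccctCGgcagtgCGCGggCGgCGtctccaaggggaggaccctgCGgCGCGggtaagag
Col4a5: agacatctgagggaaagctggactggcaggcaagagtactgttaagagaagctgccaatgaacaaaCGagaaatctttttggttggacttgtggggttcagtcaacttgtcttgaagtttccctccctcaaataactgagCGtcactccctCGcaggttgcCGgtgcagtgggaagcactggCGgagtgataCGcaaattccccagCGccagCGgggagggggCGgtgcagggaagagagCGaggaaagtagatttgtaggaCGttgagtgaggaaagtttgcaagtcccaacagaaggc
Plod1: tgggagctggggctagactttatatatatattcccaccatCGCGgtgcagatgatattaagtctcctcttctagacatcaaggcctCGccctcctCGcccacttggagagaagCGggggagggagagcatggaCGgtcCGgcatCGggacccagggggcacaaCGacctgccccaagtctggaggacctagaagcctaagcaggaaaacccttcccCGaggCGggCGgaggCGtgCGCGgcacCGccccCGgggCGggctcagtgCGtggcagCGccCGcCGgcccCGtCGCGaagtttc

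The Col4a1 window holds 37 CpG sites, that of Col4a2 33, that of Plod1 25 and that of Col4a5 11. The starts of Col4a1 and Col4a2 lie 21 bases apart on opposite strands, so the windows share 78 bases. The starts of Col4a5 and Col4a6 lie 1343 bases apart, also on opposite strands, and the Col4a6 window holds 3 CpG sites. Col4a5 rose whereas Col4a6 was too dim to be tested.

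Windows were at hand for 29 of the 40 genes, 31 in all. They held a median of 16 CpG sites, from 0 in Col3a1 to 37 in Col4a1, next to a median of 7 over 32851 windows of all genes and 19 over 13967 windows of the genes tested. The letters GGGCGG, the core of the GC box bound by Sp1, were found on either strand in 23 of the 31 windows (74.2%), next to 35.7% of all windows and 58.7% of those of genes tested. CCAAT was found in 10 (32.3%), next to 37.4% and 37.1%, and TATAAA in 4 (12.9%), next to 13.6% and 8%. The 3 motifs were searched separately and share no common stretch, and a match is a description of the letters only.

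The beaded filament and network collagens had a median difference of 0.61 over the 4 of 5 chains tested, all above 0 and none past the threshold. The median was 0.28 without DNMTs-Tg replicate 1, with 3 of 4 above 0. Col8a1, a chain of the short network collagen of vessel walls, had 12.39, 10.43 and 9.51 in DNMTs-Tg hearts, against 9.17, 8.65 and 9.57 in wild-type hearts. The DNMTs-Tg values were spread over nearly 3 log2 units, and replicate 6 lay within the wild-type range. The difference was 1.64 ± 0.67 (adjusted p = 0.178), or 0.84 without DNMTs-Tg replicate 1 (0.175). The type VI chains form beaded filaments around cells. Col6a1 had 10.93, 9.82 and 9.75 in DNMTs-Tg hearts, against 9.22, 9.38 and 9.79 in wild-type hearts, a difference of 0.70 ± 0.33 (adjusted p = 0.22), or 0.32 without DNMTs-Tg replicate 1 (0.286). Its DNMTs-Tg replicates 5 and 6 lay beside wild-type replicate 6. Col6a2 differed by 0.51 ± 0.28 (0.3) and Col6a3 by 0.34 ± 0.35 (0.573), and without DNMTs-Tg replicate 1 by 0.24 and -0.00. Col8a2, the partner of Col8a1, had 3.84 to 4.51 in DNMTs-Tg and 3.66 to 3.89 in wild-type hearts and was not tested.

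Fibril-associated and anchoring collagens, which decorate fibres or tie basement membranes to them, had a median of 0.35 over 4 chains, 3 above 0. Leaving out DNMTs-Tg replicate 1 gave a median of -0.01, with 2 of 4 above 0, and leaving out DNMTs-Tg replicate 5 gave 0.64. Col12a1 had 8.82, 6.20 and 5.25 in DNMTs-Tg hearts, against 4.83, 4.74 and 4.77 in wild-type hearts, a difference of 1.98 ± 0.80 (adjusted p = 0.177), or 0.95 without DNMTs-Tg replicate 1 (0.0738). Its groups did not overlap, and the wild-type values lay just above the 40th percentile of their arrays. This probe set is the brighter of the 2 kept ones only through the DNMTs-Tg arrays. The other one had 6.05, 5.77 and 5.75 in DNMTs-Tg hearts, against 5.66, 5.55 and 5.73 in wild-type hearts, and with it in place the difference was 0.21 (adjusted p = 0.333). Col16a1 differed by 0.48 ± 0.34 and Col14a1 by 0.22 ± 0.41, which were 0.05 and -0.27 without DNMTs-Tg replicate 1, and Col7a1, the chain of anchoring fibrils, by -0.11 ± 0.11.

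The multiplexin and transmembrane collagens had a median of 0.19 over 4 chains, 3 above 0. Col18a1, a basement membrane collagen whose end piece is endostatin, had 7.72, 7.22 and 7.59 in DNMTs-Tg hearts, against 7.10, 6.86 and 7.14 in wild-type hearts. The groups did not overlap, with a narrow gap, and the difference was 0.48 ± 0.16 (adjusted p = 0.126), or 0.37 without DNMTs-Tg replicate 1 (0.188). Its second kept probe set differed by 0.32 ± 0.17 (adjusted p = 0.361 among all probe sets), with overlapping groups. Its relative Col15a1 differed by -0.11 ± 0.34, and the transmembrane chains Col13a1 and Col23a1 by 0.37 ± 0.20 and 0.01 ± 0.18.

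Lysyl oxidases cross-link collagen and elastin outside the cell. Of the 4 chosen by name 3 were tested, with a median of 0.74, all above 0 and none past the threshold. A further lysyl oxidase, Loxl4, is counted below among the other processing genes. It differed by 0.52 ± 0.12 without overlap (adjusted p = 0.0578). The mean over the 3 genes was 2.42, 0.99 and 0.20 on the DNMTs-Tg arrays, and -0.10, -0.28 and 0.38 on the wild-type arrays. Lox, the founding member, had 10.48, 8.25 and 6.79 in DNMTs-Tg hearts, against 5.97, 5.70 and 6.84 in wild-type hearts. DNMTs-Tg replicates 1 and 5 lay far above wild-type, whereas DNMTs-Tg replicate 6 lay just below wild-type replicate 6. The difference was 2.34 ± 0.85, or 5.06-fold (adjusted p = 0.145). It was 1.35 without DNMTs-Tg replicate 1 (adjusted p = 0.136) and 3.20 without DNMTs-Tg replicate 6 (0.0339), which alone of the 6 fits that left out an array passed the threshold. Its second kept probe set differed by 2.02 ± 0.83 (adjusted p = 0.236 among all probe sets), there without overlap. Loxl1, needed for elastic fibres, differed by 0.74 ± 0.41 (adjusted p = 0.299) and Loxl3 by 0.53 ± 0.32 (0.338), or 0.31 and 0.13 without DNMTs-Tg replicate 1. Without DNMTs-Tg replicate 1 the median of the class was 0.31, and without DNMTs-Tg replicate 6 it was 1.17.

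Among the prolyl and lysyl hydroxylases 1 rose (20%, next to 2.24% of all genes) and 4 did not pass the threshold. The median was 0.10, with 3 of 5 above 0. The median was 0.00 without wild-type replicate 6, 0.02 without DNMTs-Tg replicate 1, 0.16 without DNMTs-Tg replicate 6 and 0.21 without wild-type replicate 4. Plod1, which hydroxylates lysine in the helical part of the chains, had 10.37, 10.42 and 10.18 in DNMTs-Tg hearts, against 9.31, 9.44 and 9.62 in wild-type hearts. The gap between the groups was wide next to the spread within them, and DNMTs-Tg replicate 1 was not the highest. Plod1 rose by 0.87 ± 0.12 (log2, SE, n = 3 per group), or 1.82-fold (adjusted p = 0.0135). A second and dimmer kept probe set differed by 0.16 ± 0.12 without overlap (adjusted p = 0.498 among all probe sets). With the mean of both the difference was 0.51 (adjusted p = 0.0351). The call was lost without DNMTs-Tg replicate 5 (0.82, adjusted p = 0.0674), wild-type replicate 1 (0.79, 0.0736) or wild-type replicate 4 (0.86, 0.068), and held without DNMTs-Tg replicate 1 (0.84, 0.0152).

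Plod2, which acts on the ends of the chains, had 8.64, 8.09 and 8.45 in DNMTs-Tg hearts, against 8.56, 8.48 and 8.45 in wild-type hearts, a difference of -0.10 ± 0.16 (adjusted p = 0.702). Plod3, which also adds sugars to hydroxylysine, had 9.39, 8.66 and 8.83 in DNMTs-Tg hearts, against 8.48, 8.65 and 8.49 in wild-type hearts, a difference of 0.42 ± 0.19 (0.221) without overlap. These were -0.23 and 0.20 without DNMTs-Tg replicate 1. The groups of Plod2 overlapped fully, and its 2 probe sets differed in sign. The prolyl hydroxylase subunits P4ha1 and P4ha2, which make the hydroxyproline that keeps the helix stable, differed by -0.19 ± 0.25 (0.667) and 0.10 ± 0.14 (0.672). P4ha3 was too dim to be tested.

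The chaperone and procollagen-processing genes had a median of 0.31 over 3 genes, 2 above 0 and none past the threshold, and of 0.15 without DNMTs-Tg replicate 1. Pcolce, which enhances the trimming of procollagen, had 11.87, 10.82 and 10.81 in DNMTs-Tg hearts, against 10.07, 10.17 and 10.43 in wild-type hearts. The groups did not overlap, and the difference was 0.94 ± 0.29 (adjusted p = 0.103). It was smaller, 0.59, without DNMTs-Tg replicate 1, and passed the threshold (adjusted p = 0.0346). Bmp1, the protease that Pcolce enhances, differed by 0.31 ± 0.16 (0.265). Serpinh1, the collagen chaperone of the endoplasmic reticulum, had 10.34, 10.69 and 10.12 in DNMTs-Tg hearts, against 10.24, 11.07 and 11.27 in wild-type hearts. Its difference of -0.48 ± 0.28 (adjusted p = 0.316) was the lowest of the 35, its groups overlapped, and it was -0.46 without DNMTs-Tg replicate 1. By its suffix this probe set shares probes with further transcripts, whose signal its value may include. The other kept probe set of Serpinh1 differed by only -0.16 ± 0.16 (adjusted p = 0.636 among all probe sets).

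The 22 genes of less extreme p and level had differences from -0.48 in Serpinh1 to 1.06 in Col5a2, with adjusted p of 0.221 to 0.966. The 6 genes with a difference below 0 were Serpinh1, P4ha1, Plod2, Col4a4, Col7a1 and Col15a1. Their differences were at most 0.48 in size, and 0 of the 6 passed the threshold.

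Probe sets of the same gene mostly had the same direction. Of the 35 genes 23 had more than 1 kept probe set, and these differed in sign in 3, Col4a3, Col4a4 and Plod2. Tested 1 by 1 without a filter, 2 of the 76 probe sets passed the threshold, next to 2.11% of 45037 probe sets. These were the brightest probe sets of Plod1 (adjusted p = 0.018) and Col4a5 (0.0442).

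**Figure D4:**
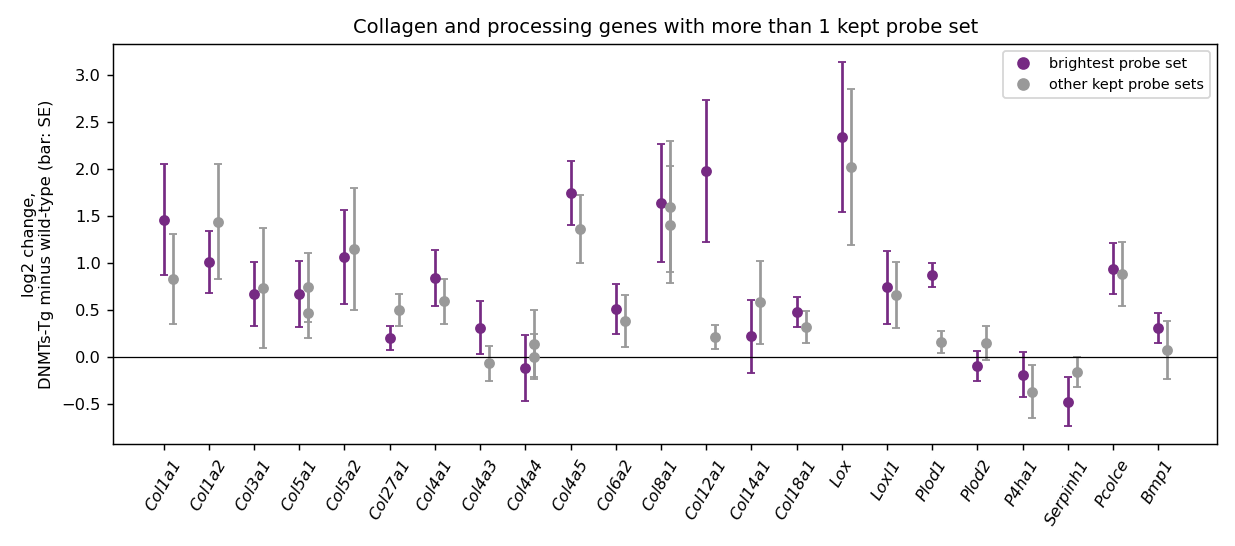
Log2 difference, DNMTs-Tg minus wild-type, of every kept probe set of the 23 genes with more than 1, from the fit over all probe sets, with error bars of 1 SE (n = 3 per group). The brightest probe set of each gene is purple and the others are grey, and the colours lie far apart for Col12a1 and Plod1.

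Other genes of collagen assembly were read from the same fit. A list of 16 measured genes covers procollagen modification and processing, and also holds the collagen uptake receptor Mrc2 and the protease Ctsk. Of these 16 genes 2 rose (12.5%, next to 2.24% of all genes), 0 fell and 14 did not pass the threshold. At an unadjusted p under 0.05, 9 were higher and 1 lower, Crtap (-0.59 ± 0.23, adjusted p = 0.164), next to 26% of all genes in either direction. The median of the list was 0.48, and 0.30 without DNMTs-Tg replicate 1. P3h2, a prolyl hydroxylase known to act on type IV collagen, had 8.29, 8.09 and 7.35 in DNMTs-Tg hearts, against 6.13, 6.35 and 5.84 in wild-type hearts. It rose by 1.80 ± 0.26 (adjusted p = 0.015). Fkbp14, a prolyl isomerase of the endoplasmic reticulum that binds collagen, had 8.78, 8.22 and 8.14 in DNMTs-Tg hearts, against 7.42, 7.62 and 7.16 in wild-type hearts, and rose by 0.98 ± 0.20 (0.0422). Both had groups that did not overlap, and each was called in 2 of the 6 fits that left out an array, those without DNMTs-Tg replicate 1 (1.61 and 0.78) and DNMTs-Tg replicate 6. With the mean of its 2 kept probe sets Fkbp14 differed by 0.55 and missed the threshold (adjusted p = 0.0545). In 11 of the 16 genes (68.8%) every DNMTs-Tg array lay above every wild-type array, next to 17.3% of all genes. Of the 6 measured chains among the other collagens limma called 0, with 0 at an unadjusted p under 0.05 and a median of 0.00. The lowest p among them were those of Col22a1 (0.23 ± 0.11, adjusted p = 0.229) and Col25a1 (-0.27 ± 0.19, 0.404). Col22a1 was dim, with 4.82 to 4.91 in DNMTs-Tg hearts, and at or below the 40th percentile on 2 wild-type arrays.

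Among 17 measured matrix proteins of collagen fibres 0 rose and 1 fell, next to 2.24% and 3.15% of all genes. The median was 0.62, with 14 above 0. The median was 0.33, with 11 above 0, without DNMTs-Tg replicate 1. At an unadjusted p under 0.05 there were 6 higher genes, such as Postn (periostin, 1.84 ± 0.66, adjusted p = 0.143) and Tnc (tenascin C, 1.59 ± 0.49, 0.106), and 2 lower ones, Ogn and Thbs4. These counts stand next to 26% of all genes in either direction and 12.9% higher. Postn had 12.77, 10.58 and 9.87 in DNMTs-Tg replicates 1, 5 and 6, against 9.04, 9.28 and 9.40 in wild-type hearts. For Tnc these were 8.13, 6.58 and 6.19, against 5.17, 5.89 and 5.07. The gene past the threshold was Ogn, which encodes the small proteoglycan osteoglycin, with 10.58, 10.16 and 10.87 in DNMTs-Tg hearts, against 11.51, 11.42 and 11.61 in wild-type hearts. Ogn fell by 0.98 on the log2 scale (SE 0.18, adjusted p = 0.0284) and was called in 2 of the 6 fits that left out an array. Its direction was opposite to the median of the list it stands in.

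In 4 further lists limma called 0 genes. Their counts at an unadjusted p under 0.05 stand next to 26% of all genes tested. The 12 basement membrane partners had a median of 0.13, with 2 at an unadjusted p under 0.05, Hspg2 (perlecan, 0.42 ± 0.13, adjusted p = 0.105) and Nid2 (nidogen, 0.62 ± 0.22, 0.136). That median turned to -0.03, with 5 of 12 above 0, without DNMTs-Tg replicate 6, and was 0.27 without wild-type replicate 6. The 8 collagenases and inhibitors measured had a median of 0.26, also with 2 such genes, the inhibitor Timp1 (2.90 ± 0.77, 0.0758) and the membrane-bound collagenase Mmp14 (0.97 ± 0.36, 0.148). The median was 0.14 without DNMTs-Tg replicate 1 and 0.42 without DNMTs-Tg replicate 5. Timp1 passed the threshold without DNMTs-Tg replicate 1 (1.94, 0.0183) or DNMTs-Tg replicate 6 (3.66, 0.021). The 16 measured genes of the TGF-beta pathway, known as an inducer of collagen genes, had a median of 0.07 with 5 such genes. The lower ones were Smad3 (-0.51 ± 0.12, 0.0574) and Ltbp1 (-0.79 ± 0.21, 0.0732), and the higher ones Ccn2 (1.65 ± 0.54, 0.12), Smad7 (0.47 ± 0.17, 0.136) and Tgfbr1 (0.61 ± 0.26, 0.19). Without DNMTs-Tg replicate 1 the median of this pathway turned to -0.10, with 4 of 16 above 0. The 5 measured collagen receptors had a median of 0.36 with 1 such gene, Ddr1 (0.66 ± 0.15, 0.0566), followed by Itgb1 (0.57 ± 0.31, 0.284). Their median turned to -0.02, with 2 of 5 above 0, without DNMTs-Tg replicate 1, and was 0.56 without DNMTs-Tg replicate 5. Smad3 (-0.57, 0.042), Ltbp1 (-1.03, 0.00676) and Ddr1 (0.78, 0.0248) passed the threshold without DNMTs-Tg replicate 6. With the mean of its 8 kept probe sets Ddr1 differed by only 0.16 over all 6 arrays (adjusted p = 0.367).

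Of the markers of cells of a whole heart, the fibroblast, macrophage and cartilage and tendon lists were raised together with the collagens on DNMTs-Tg replicate 1. The endothelial, smooth muscle, epicardial and cardiomyocyte lists were not, with means of 0.02, 0.06, -0.02 and -0.26 on that array. Of 10 measured fibroblast markers of 12, 0 passed the threshold and the median was 0.39, or 0.25 without DNMTs-Tg replicate 1. At an unadjusted p under 0.05, 3 were higher and 2 lower, next to 26% of all genes in either direction. The higher ones were Fbln2 (1.22 ± 0.44, adjusted p = 0.141), Dpep1 (0.70 ± 0.27, 0.159) and Pi16 (0.86 ± 0.34, 0.169). The lower ones were Scara5 (-0.56 ± 0.19, 0.131) and Dpt (-0.33 ± 0.14, 0.192). In 3 of the 10 markers every DNMTs-Tg array lay above every wild-type array (30%, next to 17.3% of all genes). In 2, Scara5 and Dpt, every one lay below (next to 17.6%). With the mean of its kept probe sets Scara5 differed by 0.00. The fibroblast markers had a mean relative to wild-type of 0.88, 0.20 and 0.17 on the DNMTs-Tg arrays, and -0.01, -0.13 and 0.14 on the wild-type arrays. Their summed linear signal was 14700 to 20700 in DNMTs-Tg and 12900 to 15200 in wild-type hearts. Of 15 measured macrophage and myeloid markers of 16, 0 passed the threshold and 2 had an unadjusted p under 0.05, next to 26% of all genes. These 2 were Ccr2 (1.44 ± 0.32, adjusted p = 0.0509) and Lgals3 (2.16 ± 0.59, 0.0792), both higher and without overlap. Ccr2 had 7.03, 5.68 and 5.96 in DNMTs-Tg hearts, against 4.79, 4.84 and 4.74 in wild-type hearts. In 3 of the 15 markers every DNMTs-Tg array lay above every wild-type array (20%, next to 17.3% of all genes). The median of the list was 0.37. Without DNMTs-Tg replicate 1 it was -0.11, with 4 of 15 above 0 and 2 genes called. The means of that list were 1.48, 0.01 and 0.07 on the DNMTs-Tg arrays, against -0.01, -0.13 and 0.15 on the wild-type arrays. Its summed signals were 5810 to 15600 in DNMTs-Tg and 6110 to 7500 in wild-type hearts. In DNMTs-Tg replicate 1, the array with the highest collagen values, 14 of the 15 macrophage markers lay above every wild-type array, next to 3 in replicate 5 and 4 in replicate 6. No marker of these 2 lists was at or below the 40th percentile on any array, and their part in the collagen values was not tested.

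Endothelial markers had means of 0.02, -0.02 and 0.24 on the DNMTs-Tg arrays, against -0.04, -0.05 and 0.08 on the wild-type arrays. Of these 12 genes 1 rose (8.33%, next to 2.24% of all genes). This was Vwf, the von Willebrand factor, by 1.39 ± 0.21 (adjusted p = 0.0177), called in 3 of the 6 fits that left out an array. At an unadjusted p under 0.05 there were 1 higher gene, Vwf, and 1 lower, Cldn5 (-0.93 ± 0.29, adjusted p = 0.109), next to 26% of all genes. The groups of Cldn5 did not overlap. The summed endothelial signal was 19200 to 24000 in DNMTs-Tg and 18700 to 20600 in wild-type hearts. Of the 12 cardiomyocyte markers 1 fell, next to 3.15% of all genes. This was the transcription factor gene Nkx2-5, by 0.59 on the log2 scale (adjusted p = 0.0471), called in 0 of the 6 fits that left out an array. At an unadjusted p under 0.05, 2 were lower and 1 higher, Mybpc3 (0.34 ± 0.08, adjusted p = 0.0606), next to 26% of all genes. Every DNMTs-Tg array lay below every wild-type array in 7 of the 12 (next to 17.6% of all genes) and above in 2 (next to 17.3%). The summed cardiomyocyte signal was 193000 to 217000 in DNMTs-Tg and 218000 to 221000 in wild-type hearts, lowest in DNMTs-Tg replicate 1. All 12 cardiomyocyte markers had log2 signals of at least 7.98 on every array. Of 11 smooth muscle and pericyte markers, 4 measured cartilage and tendon markers of 8 and 4 measured epicardial markers of 6, 0 passed the threshold (limma). At an unadjusted p under 0.05 there were 3, 0 and 0 genes, next to 26% of all genes. The cartilage and tendon means were 1.32, 0.27 and -0.20 on the DNMTs-Tg arrays, against -0.11, 0.11 and -0.00 on the wild-type arrays, again highest in DNMTs-Tg replicate 1.

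**Figure D5:**
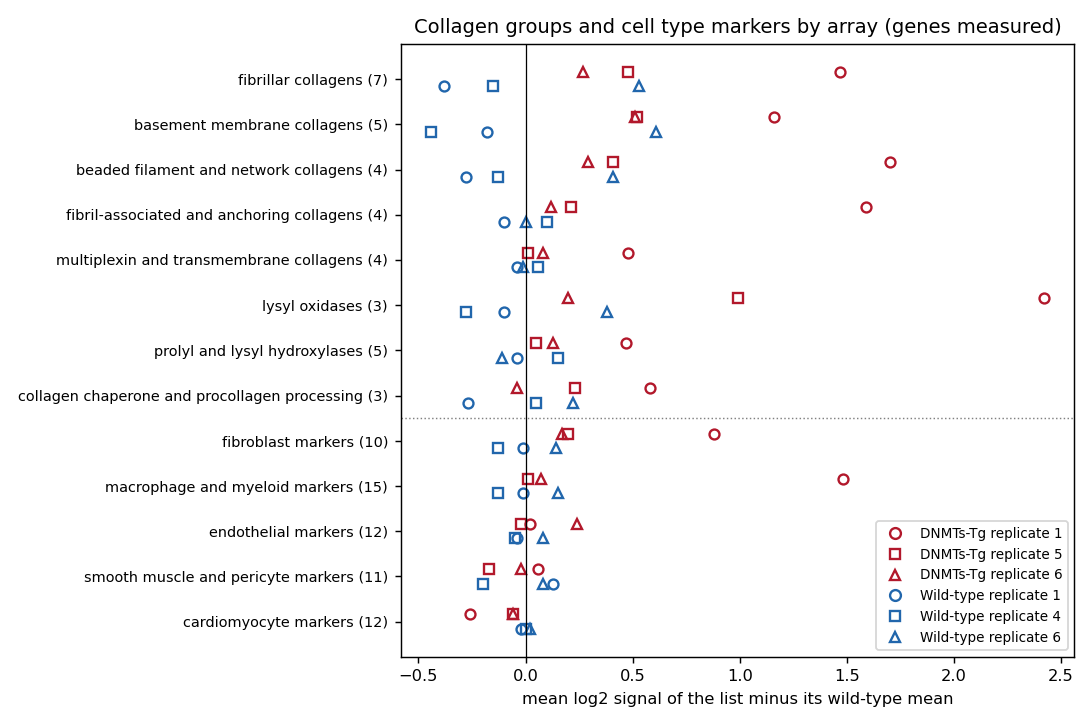
Mean log2 signal of each list minus its wild-type mean on the horizontal axis, 1 point per array, for the 8 collagen classes (above the dotted line) and 5 lists of cell type markers, with DNMTs-Tg in red above wild-type in blue and the number of genes measured in brackets. DNMTs-Tg replicate 1 (red circles) is the farthest right in the 8 collagen classes and in the fibroblast and macrophage lists, at 1.47 for fibrillar collagens and 1.48 for macrophage markers.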

How the data were processed

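The authors deposited 1 value per probe set for each of 6 Affymetrix arrays. The deposited values, from 2.06 to 14.7, were read as log2 signals. Array medians of 5.28 to 5.33 show a common scale, but the sources used here name no normalization or software, and no detection calls were used. RNA came from frozen hearts, per the labels' protocols. Of 45101 probe sets 34958 had 1 gene symbol, 932 several and 9211 none, and 34754 were matched to current symbols by gene identifier. Values were analysed as deposited.

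Probe sets were kept where at least 3 of 6 arrays lay above their own array's 40th percentile, a limit set by the analysis and not a measured background. Each gene was represented by the kept probe set of highest mean over the 6 arrays. limma 3.58.1 in R 4.3.3 (lmFit, eBayes with a trend) was fitted over all 13634 genes, 2-sided, with Benjamini-Hochberg adjustment over all of them and a threshold of 0.05. All adjusted p-values come from such limma fits. Probe sets were also fitted without a filter. Arrays of 1 group are separate mice, and their number limits the precision.

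The genes and lists were chosen with earlier results of these data known. Values on every array are given for genes past the threshold, the 12 smallest p, the 5 brightest, and the pairs Col1a1/Col1a2 and Col4a1/Col4a2. Plod2, Plod3, Serpinh1, Ccn2, Smad7, Tgfbr1, Postn, Tnc, Thbs4, Scara5 and Dpt were added after their values were seen. So were Fbln2, Dpep1, Pi16, Ccr2, Lgals3, Cldn5, Mybpc3, Loxl4 and Crtap. Of each further list, genes past the threshold or else the 2 smallest p are named. Alternatives tried were leaving out each array, a replicate block, array weights, other variance models, filters and choices of probe set, and scaling by quantiles or a common median. In data simulated for this comparison with 13634 genes, 62 of 100 genes changed 2-fold and 95 of 100 changed 4-fold were recovered, with 0 wrong signs and 9 unchanged genes called. The changed genes were drawn at random, and the noise was normal and independent between genes and arrays, at each gene's own SD. These rates need not hold for the collagen genes, most of which were highest together on DNMTs-Tg replicate 1. Promoter windows are RefSeq's for GRCm38.p6.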

Additional observations from a re-analysis of the deposited data

How the results depend on the processing

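The count of 2 collagen and processing genes called was 0 to 3 when 1 array was left out, 15 with array weights, 1 with the mean of kept probe sets and 0 with the replicate block. The count of all genes was 735, and 123 to 1604 with 1 array left out, 4822 with array weights and 1 with the replicate block. The 5 calls in the further lists and marker lists were 0 to 25 with 1 array left out, 55 with array weights and 0 with the replicate block. Of the 76 probe sets 2 were called, and 0 to 4 with 1 array left out, 11 with array weights, 1 with a common median, 1 with the robust fit and 0 with the replicate block. The median difference of the 35 genes was 0.48, and 0.21 to 0.67 with 1 array left out. The array weights, 0.203, 5.63 and 0.406 for DNMTs-Tg replicates 1, 5 and 6, came from a fit that did not reach its tolerance, so those counts are uncertain. Besides array weights, Col4a2 was called without wild-type replicate 6, Lox without DNMTs-Tg replicate 6 and Pcolce without DNMTs-Tg replicate 1. Plod1 kept its call in 3 of 6 fits with an array left out and in 9 of the 10 other settings, Col4a5 in 2 and 8. Col4a5 missed the threshold with the mean of its probe sets (1.56, adjusted p = 0.0583), and both missed it with the block. The groups share only the numbers 1 and 6, whose arrays had deviations correlated at -0.05 and -0.08, so the numbers were not taken to pair the mice and the lost calls under the block do not show a weaker effect. The median of the fibril-associated class turned to -0.01 without DNMTs-Tg replicate 1. Of the 35 genes 10 took the other sign in some setting, all of them uncalled and none among the 13 given by array under the naming rule. With the mean of kept probe sets these were Col4a4 (0.00) and Plod2 (0.02), as was the marker Scara5 (0.00). With array weights they were Col4a3 (-0.05), Col6a3 (-0.00), Col14a1 (-0.27) and Col16a1 (-0.01), and with the replicate block Col15a1 (0.19), Plod2 (0.04) and P4ha1 (0.17). With 1 array left out, the lowest and highest values were -0.27 and 0.49 for Col5a3, -0.00 and 0.60 for Col6a3, -0.27 and 0.54 for Col14a1, -0.47 and 0.24 for Col4a4, -0.49 and 0.13 for Col15a1, -0.16 and 0.12 for Col23a1, -0.23 and 0.05 for Plod2, and -0.39 and 0.03 for P4ha1. The cause was not tested. Dim probe sets have no detection call here, which limits Col12a1 and Col22a1 in wild-type hearts and the 4 untested genes.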
